A study of Drosophila melanogaster with 6 samples.

Results

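The genes described here encode the receptor for the moulting hormone ecdysone and the transcription regulators that respond to it first. Their members were chosen by name: every probe set (a group of short probes on the array that reads 1 transcript or several of 1 gene) whose platform annotation gives 1 of 10 gene symbols. For 8 of the 10 genes, EcR, usp, br, Eip78C, Hr3, Hr4, Hr39 and ftz-f1, this found 18 probe sets among the 18769 on the array that are not array controls. Eip74EF and Eip75B were on the list of symbols and are not analysed here.

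RNA came from male Drosophila melanogaster in the third larval instar, the last before pupariation, and each of the 6 one-colour Affymetrix arrays read 1 RNA preparation. The msl2 mutants were yw/Yy+;msl21/msl21, homozygous for a chemically induced (EMS) allele of msl2, and the heterozygous controls were yw/Yy+;msl21/+, so all animals carried the y and w markers on the X, a Y chromosome with y+ and at least 1 copy of the mutant allele. Each group had 3 arrays, each from a separate preparation of a pool of at least 50 larvae, and p-values measure the spread between such pools. MSL2 is a subunit of the complex that raises expression from the single male X chromosome, and the series asks whether genes on the X and on the autosomes need it. Values are log2 expression after RMA, the authors' background correction, normalization and summarization, in which 1 unit is a doubling.

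Ecdysone pulses time the moults of the fly and its metamorphosis. The hormone binds a heterodimer of the nuclear receptors EcR and Usp, which switches on a small set of early genes for transcription regulators, and these go on to switch on late genes in salivary gland, fat body and imaginal discs. At the end of larval life a high-titre pulse starts pupariation; Hr3, Hr4 and, after the hormone has fallen again, ftz-f1 follow the early genes in a fixed order in the prepupa.

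None of the 18 probe sets passed the test between mutants and controls, and the values that differed most between arrays did so among the mutant pools. With limma and Benjamini-Hochberg adjustment over all 18769 probe sets, 0 members had an adjusted p under 0.05, against 6 of all probe sets (0.032%). At an unadjusted p under 0.05, 2 members were higher in the mutants (ftz-f1 and Hr3) and 0 were lower, while 1410 of all probe sets (7.51%) had such a p. The mutant minus control difference was above 0 in 12 of 18 member probe sets, with a median of 0.24, beside 52.7% above 0 and a median of 0.01 over all probe sets. In 3 members all mutant arrays lay above all control arrays, and in 0 members all lay below. Over all probe sets the mutants lay wholly above in 6.07%, and the groups did not overlap in either direction in 11.9%.

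**Figure D1:**
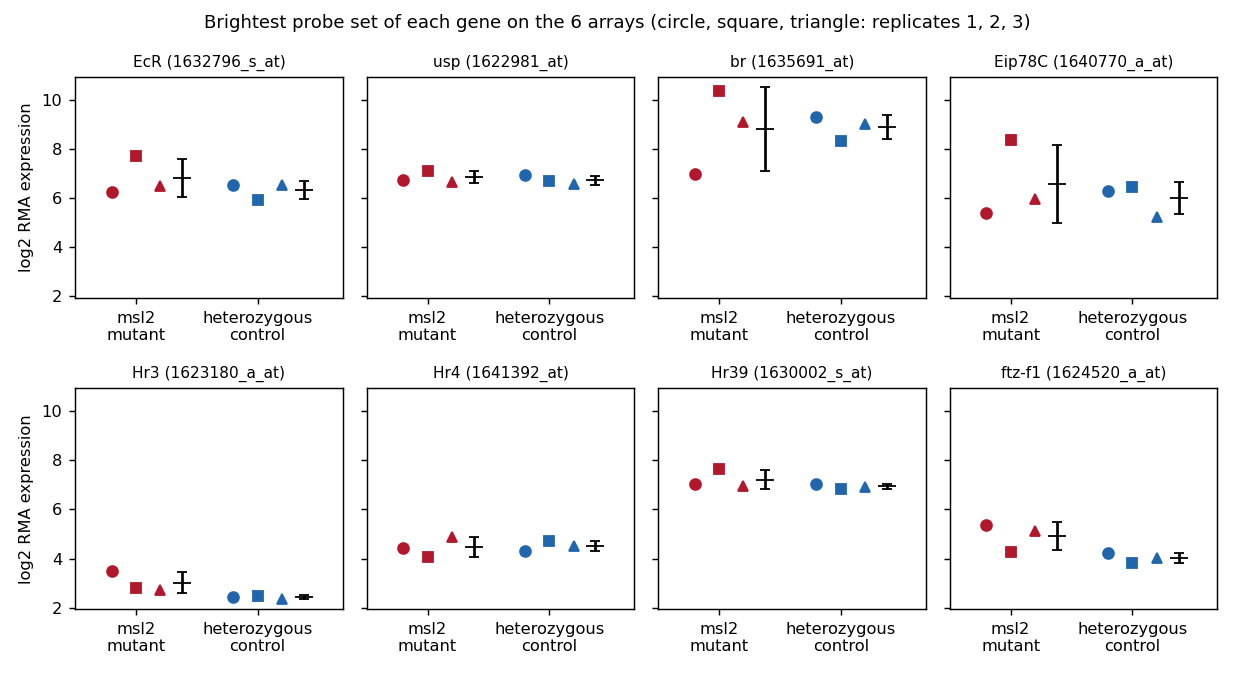
Log2 RMA expression of the brightest probe set of each of the 8 genes in 3 msl2 mutant and 3 heterozygous control pools (circle, square and triangle are replicates 1, 2 and 3; the bar beside each group is its mean ± SD). For br the mutant pools run between 6.999 and 10.37, and for ftz-f1 all mutant pools are above all control pools.

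The hormone receptor itself was represented by 1 probe set for each partner. EcR, the ecdysone-binding partner, had log2 values of 6.25, 7.71 and 6.48 in mutant replicates 1, 2 and 3, against 6.55, 5.93 and 6.54 in control replicates 1, 2 and 3. Mutant replicate 2 was the highest of the 6 arrays and the other mutant pools lay among the controls. EcR averaged 6.81 ± 0.79 in the mutants and 6.34 ± 0.36 in the controls (SD, n = 3 each), a difference of 0.48 (SE 0.39, 95% interval -0.46 to 1.41, limma adjusted p = 0.87). Leaving out mutant replicate 1 gave an EcR difference of 0.76, leaving out mutant replicate 2 gave 0.03, and leaving out control replicate 2 gave 0.27.

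The partner gene usp, the fly homologue of the retinoid X receptor, varied least among the brighter members. Its values were 6.75, 7.12 and 6.66 in mutant replicates 1 to 3 and 6.93, 6.69 and 6.56 in control replicates 1 to 3. The highest value was again in mutant replicate 2, and the groups overlapped. The usp difference was 0.12 (SE 0.18, 95% interval -0.30 to 0.53, limma adjusted p = 0.98), and it was -0.023 without mutant replicate 2.

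The early gene br (broad) encodes a family of zinc-finger proteins, made by alternative splicing, that are needed for entry into metamorphosis. Its 5 probe sets included the widest spread of any member. The brightest, 1635691_at, had 6.999, 10.37 and 9.10 in mutant replicates 1 to 3, against 9.31, 8.35 and 9.02 in control replicates 1 to 3. The mutant pools bracketed the controls, 1.89 below the control mean in replicate 1 and 1.48 above it in replicate 2, with replicate 3 inside the control range. The probe set 1637312_a_at had 3.58, 7.99 and 5.76 in the mutants and 6.34, 5.59 and 6.13 in the controls, a range of 4.41 among the mutant pools against 0.75 among the control pools. The value of 3.58 is under 4.10, the mean below which the dimmest 25% of probe sets lie, so the size of the drop in that pool is approximate.

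The remaining br probe sets kept the same order of mutant pools on a smaller scale. The probe set 1629683_at had 4.54, 6.83 and 5.37 in the mutants and 5.26, 5.21 and 5.08 in the controls. Values of 1636931_at were 4.84, 6.12 and 5.33 in mutant larvae and 5.02, 4.99 and 4.89 in control larvae. The fifth, 1626996_s_at, moved little, with 5.29, 5.64 and 5.45 in the mutants and 5.40, 5.33 and 5.44 in the controls. In 5 of 5 br probe sets mutant replicate 2 was the highest and mutant replicate 1 the lowest of the 6 arrays. Over all probe sets, mutant replicate 2 was highest in 23.8% and mutant replicate 1 lowest in 18.8%. Probe sets of 1 gene share their transcripts and their RNA pools and are not independent of each other, and which br isoforms each reads is not given in the sources used here.

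Because the mutant pools went both ways, the group difference of br carried a wide error. It was -0.07 (SE 0.79, 95% interval -1.93 to 1.79, limma adjusted p = 0.998) for 1635691_at, -0.25 (SE 0.99) for 1637312_a_at, 0.07 for 1626996_s_at, 0.40 for 1629683_at and 0.46 for 1636931_at. The sign depended on single pools. Without mutant replicate 1 the difference of 1635691_at was 0.84, without mutant replicate 2 it was -0.84, and without control replicate 1 it was 0.14. For 1637312_a_at it was 0.85 without mutant replicate 1 and -1.35 without mutant replicate 2, and for 1629683_at it was -0.23 without mutant replicate 2. The difference of 1636931_at was 0.75 without mutant replicate 1 and 0.11 without mutant replicate 2.

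Eip78C, an ecdysone-inducible nuclear receptor, showed the same high pool. It had 5.41, 8.36 and 5.95 in mutant replicates 1 to 3 and 6.28, 6.44 and 5.24 in control replicates 1 to 3. Mutant replicate 2 stood 2.38 above the control mean, while the other mutant pools were inside the control range, which at 1.20 was the widest of any member. The difference was 0.59 (SE 0.75, 95% interval -1.20 to 2.38, limma adjusted p = 0.963), and it was -0.31 without mutant replicate 2.

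**Figure D2:**
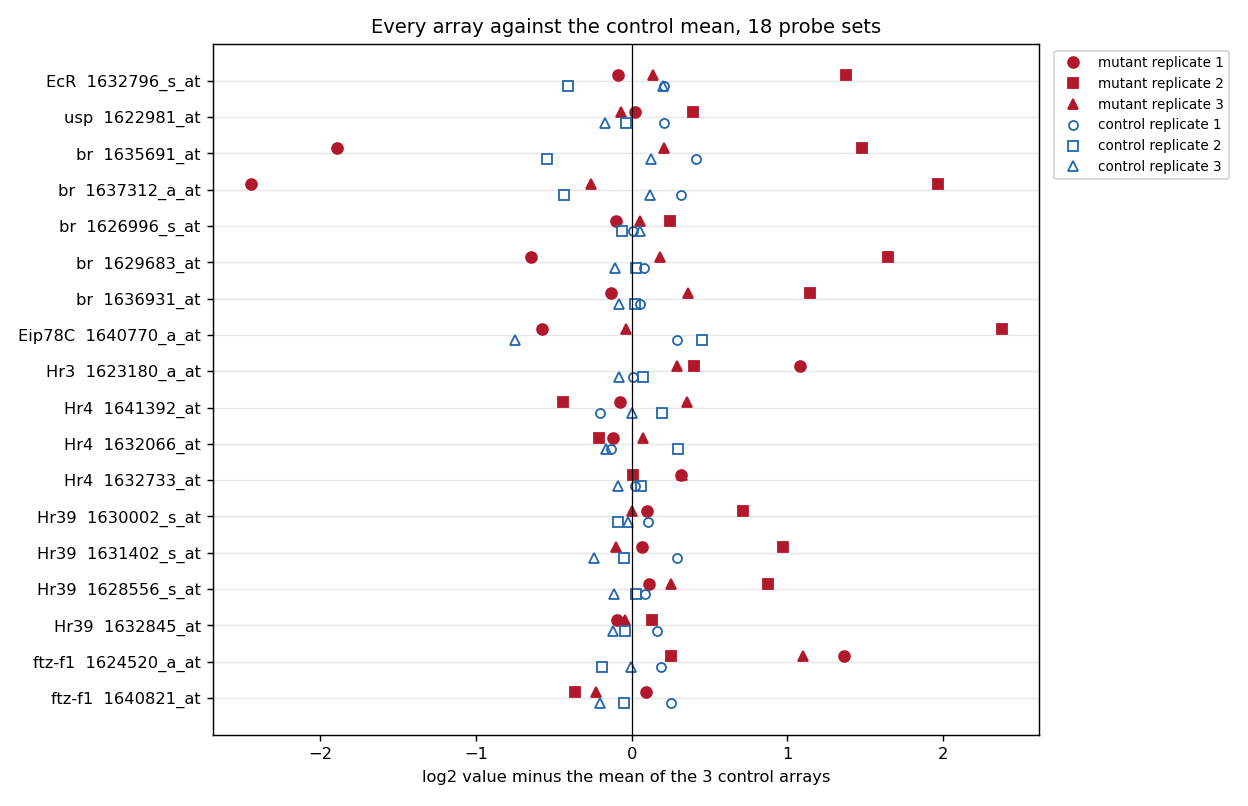
Each of the 6 arrays as its log2 value minus the mean of the 3 control arrays, for all 18 probe sets (filled red, mutant replicates; open blue, control replicates; rows are grouped by gene, brightest probe set on top). The square of mutant replicate 2 is the rightmost mark in the rows of EcR, usp, br and Eip78C and in 3 of 4 rows of Hr39, and the circle of mutant replicate 1 is the leftmost in all 5 rows of br.

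Mutant replicate 2 had the highest value of the 6 arrays in 11 of the 18 member probe sets: those of EcR, usp and Eip78C, the 5 of br and 3 of the 4 of Hr39. The 7 exceptions were the probe sets of Hr3, Hr4 and ftz-f1 and the dimmest of Hr39. With each array centred on its median the count was 11 of 18, beside 16.2% of all probe sets, and after quantile normalization it was 12 of 18, beside 22.7%. A range of at least 1 log2 unit among the mutant pools was found in 8 of 18 members, 4 of them probe sets of br, and in 14.8% of all probe sets. Counted by the brightest probe set of each gene, the range was that wide in 4 of 8 genes, and mutant replicate 2 was highest in 5 of 8. The member probe sets had a median SD of 0.42 among mutant pools and of 0.19 among control pools. Over all probe sets these medians were 0.26 and 0.14.

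Of 7 lists of markers of larval age, sex and other tissues, the glue genes and most of the fat body genes moved with these pools. Of the 7 glue genes listed, which salivary glands express before pupariation, 6 were measured (Sgs1, Sgs3, Sgs4, Sgs5, Sgs7 and Sgs8). The glue median was 5.48, 13.62 and 13.10 in mutant replicates 1 to 3 and between 12.72 and 13.32 in the controls. The log2 of their summed linear values was 11.41, 16.06 and 15.62 in the mutants and between 15.30 and 15.83 in the controls. The median of 4 measured fat body genes of 7 listed (Lsp2, Fbp1, Fbp2 and Col4a1) was 11.05, 13.59 and 12.68 in the mutants and between 12.10 and 12.91 in the controls, and of these Col4a1 ran the other way, with 11.37, 9.65 and 10.50 in the mutants. The pupal cuticle gene Pcp had 8.06, 12.29 and 10.68 in the mutants and 11.48, 10.48 and 11.20 in the controls, lowest in replicate 1 and highest in replicate 2. The other 3 pupal cuticle genes (Edg78E, Edg84A and Edg91) had mutant replicate 2 as the lowest mutant pool, and the median of all 4 was 6.06, 5.94 and 6.77 in the mutants and between 6.36 and 6.62 in the controls. The 4 new-glue genes, expressed in salivary glands earlier than the glue genes, also had their lowest median in mutant replicate 2, with 11.73, 10.64 and 11.33 in the mutants and between 11.63 and 11.97 in the controls. Mutant replicate 2 was the lowest array for ng1, ng2 and ng4, and mutant replicate 3 for ng3. Unlike the others, ng4 was above the controls in mutant replicates 1 and 3, with 6.19, 4.09 and 7.22 in the mutants and 4.59, 4.41 and 4.71 in the controls. The 3 measured muscle genes of 6 listed had a median of 11.17, 10.97 and 11.09 in the mutants and between 11.00 and 11.61 in the controls. Of these, Mlc2 lay wholly below the controls, with 9.59, 8.40 and 8.86 in the mutants and 10.06, 9.73 and 9.75 in the controls. The groups overlapped for up and Tm2. The 3 yolk protein genes had medians of 4.08, 3.48 and 4.40 in the mutants and between 3.88 and 4.19 in the controls. These medians are those of Yp2, which was dim, as was Yp1. The brighter Yp3 had 4.87, 7.07 and 7.41 in the mutants and 6.45, 6.38 and 5.73 in the controls, lowest in mutant replicate 1 and highest in mutant replicate 3. The 5 measured late prepupal puff genes of 7 listed lay in the dimmest 25% of probe sets by mean. Their medians were 3.07 to 3.35 in the mutants and 3.26 to 3.44 in the controls. The brightest of them, Eig71Eg, had 3.16, 4.98 and 3.70 in the mutants and 4.17, 3.62 and 4.01 in the controls, lowest in replicate 1 and highest in replicate 2 of the mutants. For Eig71Ed, Eig71Ef and Eig71Eh mutant replicate 2 was the lowest array. Averaged over 5 pairs of fly control probe sets, the 3' signal minus the 5' signal, a sign of RNA quality, was 2.19, 1.33 and 1.88 in mutant replicates 1 to 3 and between 1.80 and 1.95 in the controls. The part of larval age and of RNA quality in the member values was not tested. In RNA from whole larvae, fewer cells of a type and less RNA per cell cannot be told apart.

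Of the regulators that act after the early genes, the Hr3 probe set and 1 of the 2 ftz-f1 probe sets had higher values in all mutant pools than in any control pool, and neither passed the test over all 6 arrays. Hr3, an orphan nuclear receptor that represses early genes and activates ftz-f1, had 3.49, 2.81 and 2.71 in mutant replicates 1 to 3, against 2.42, 2.49 and 2.33 in control replicates 1 to 3. The groups were 0.22 apart at their nearest and mutant replicate 1 was highest. The difference was 0.59 (SE 0.22, limma adjusted p = 0.62). The Hr3 probe set was among the dimmest 1% of probe sets (percentile 0.815 by mean), near the lowest value of 2.25 on any array, so neither its size nor the presence of the transcript can be read from these values. The Hr3 difference was 0.34 without mutant replicate 1.

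The gene ftz-f1 encodes a nuclear receptor that makes prepupal tissues competent to answer the following ecdysone pulse. Its brighter probe set, 1624520_a_at, had 5.38, 4.27 and 5.12 in mutant replicates 1 to 3, against 4.21, 3.83 and 4.02 in control replicates 1 to 3. All mutant pools were above all control pools, by 0.06 at the nearest, and mutant replicate 2 was the lowest mutant pool. The means were 4.92 ± 0.58 in the mutants and 4.02 ± 0.19 in the controls (SD, n = 3 each). The difference of 0.90 (SE 0.29, 95% interval 0.22 to 1.59) corresponds to a 1.87-fold higher level and had the smallest p of the members (unadjusted p = 0.0172 and adjusted p = 0.537, limma). Without mutant replicate 2 it was 1.23 (limma adjusted p = 0.0187), in a fit that called 7.08% of all probe sets. Without mutant replicate 1 it was 0.67 (limma adjusted p = 0.772). The control mean lies in the dimmest 25% of probe sets, where RMA compresses differences.

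The second ftz-f1 probe set, 1640821_at, was dim. Its values were 3.36, 2.90 and 3.04 in mutant replicates 1 to 3 and 3.52, 3.21 and 3.06 in control replicates 1 to 3, with a difference of -0.17 (SE 0.18, limma adjusted p = 0.935). It was at percentile 6.73 of all probe sets by mean, where a change in the transcript may leave the value nearly the same, so a difference between the 2 probe sets cannot be read as unequal change of their transcripts. The brighter minus the dimmer probe set was 2.03, 1.37 and 2.08 in the mutants and 0.69, 0.62 and 0.96 in the controls, which do not overlap. The exact permutation test of that difference between probe sets gave a two-sided p of 0.10, which no split of 3 against 3 arrays can go below, and 0.50 after adjustment over the 10 pairs of probe sets compared. The other 9 pairs, in br, Hr4 and Hr39, had an exact permutation p between 0.20 and 1.

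**Figure D3:**
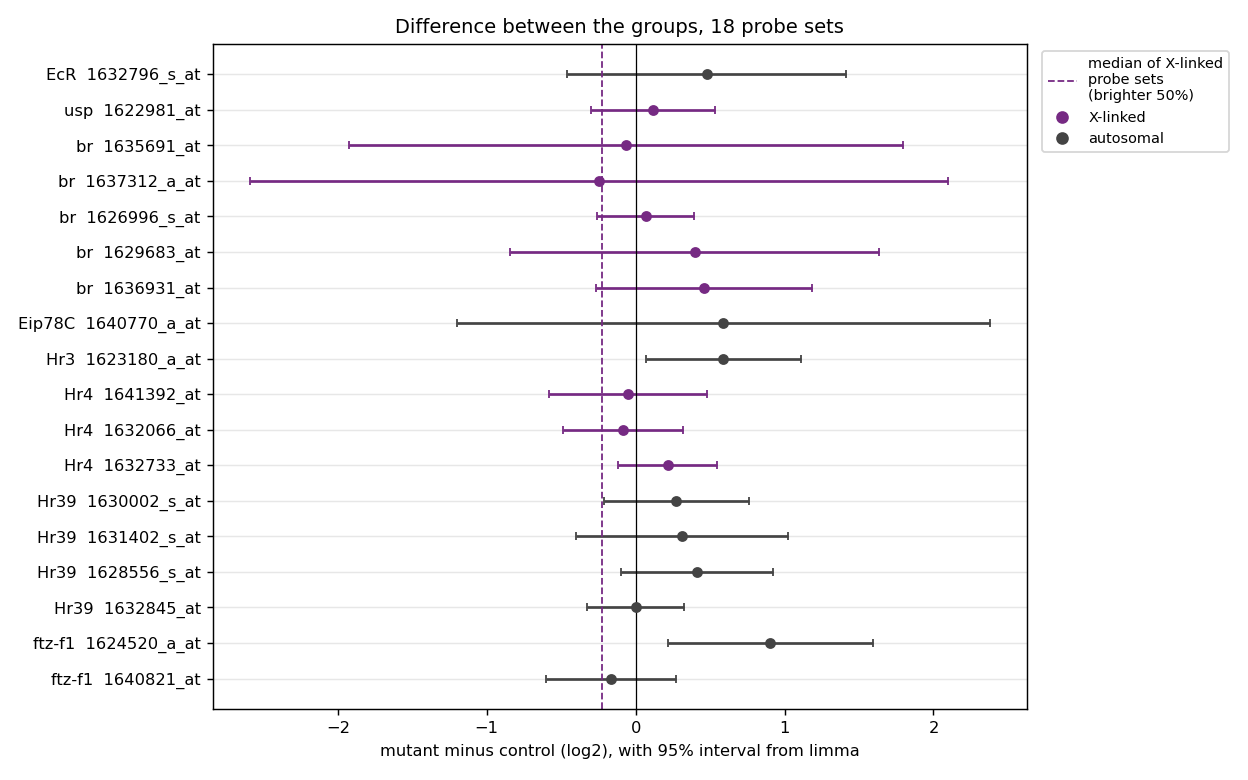
Mutant minus control difference (log2) of all 18 probe sets with its 95% interval from limma; purple marks X-linked genes, grey autosomal ones, and the dashed line is the median difference of X-linked probe sets in the brighter 50%, -0.23. The intervals of br 1635691_at and 1637312_a_at are the widest, and those of ftz-f1 1624520_a_at and Hr3 lie above 0 before adjustment.

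Hr39, a nuclear receptor related to ftz-f1 and induced by ecdysone, was read by 4 probe sets. The brightest, 1630002_s_at, had 7.04, 7.65 and 6.94 in mutant replicates 1 to 3 and 7.05, 6.86 and 6.92 in control replicates 1 to 3. The probe set 1631402_s_at had 6.42, 7.32 and 6.25 in the mutants and 6.64, 6.30 and 6.11 in the controls. In 1628556_s_at the mutant values of 5.64, 6.40 and 5.78 lay above the control values of 5.62, 5.55 and 5.41, by 0.02 at the nearest. All of these had mutant replicate 2 as the highest array. Their differences were 0.27 (SE 0.21), 0.31 (SE 0.30) and 0.41 (SE 0.22), and the limma adjusted p was 0.839, 0.907 and 0.731. Once mutant replicate 2 was left out, the differences were 0.052 for 1630002_s_at, -0.017 for 1631402_s_at and 0.18 for 1628556_s_at. The dimmest Hr39 probe set, 1632845_at, was between 2.69 and 2.92 in the mutants and between 2.66 and 2.95 in the controls, at percentile 1.33.

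Hr4, a nuclear receptor that acts between the early genes and ftz-f1 and in the prothoracic gland restrains ecdysone release, was dim in all of its 3 probe sets. The brightest, 1641392_at, had 4.44, 4.07 and 4.87 in mutant replicates 1 to 3 and 4.31, 4.71 and 4.51 in control replicates 1 to 3. Mutant replicate 2 was the lowest of the 6 arrays there, unlike in EcR, br and Eip78C. The differences of the 3 probe sets were -0.05 (SE 0.22), -0.09 (SE 0.17) and 0.22 (SE 0.14), with limma adjusted p between 0.796 and 0.998.

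**Figure D4:**
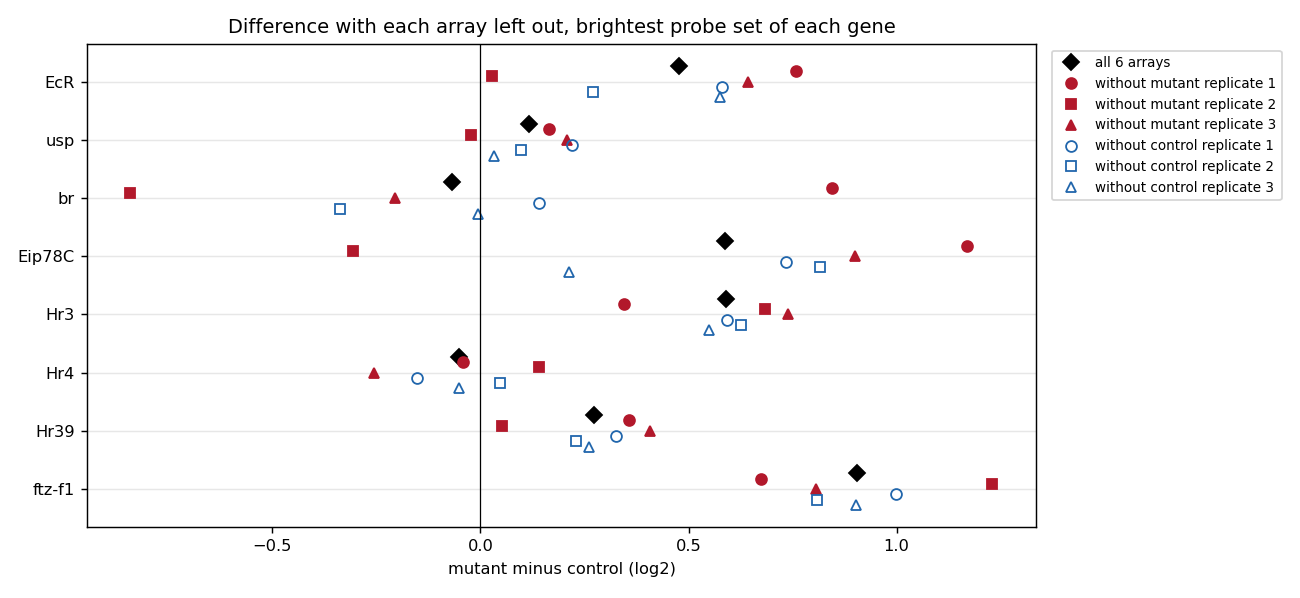
Mutant minus control difference (log2) of the brightest probe set of each gene with all 6 arrays (black) and without each array in turn (red, a mutant replicate left out; blue, a control replicate left out). The points of EcR, Hr3, Hr39 and ftz-f1 all lie above 0, while those of usp, br, Eip78C and Hr4 lie on both sides of it.

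The genes usp, br and Hr4, with 9 of the 18 probe sets, are X-linked, and the X-linked genes of the series were lower in the mutants. Over 1200 X-linked probe sets in the brighter 50%, the median difference was -0.23 and 22.2% were above 0, against 0.04 and 55.2% for 7105 probe sets of the major autosomal arms. The usp difference of 0.12 lay above that X-linked median. With the median X-linked value of each array, centred over the 6 arrays, subtracted, usp was 6.84, 7.13 and 6.87 in mutant replicates 1 to 3 and 6.74, 6.63 and 6.51 in control replicates 1 to 3, so that the groups did not overlap. The relative usp difference was 0.32 (exact permutation p = 0.10, two-sided, the smallest possible, and 0.45 adjusted over 9 probe sets). The Hr4 probe set 1632733_at had 4.08, 3.69 and 4.21 in the mutants and 3.51, 3.68 and 3.54 in the controls on that scale, a relative difference of 0.42 with the same p-values. The subtracted median comes from the brighter 50% of X-linked probe sets, while this probe set lay at percentile 19.2, where RMA compresses differences. On the deposited values its groups overlapped, with a difference of 0.22, and its nearest values on the relative scale were 3.69 and 3.68. The other Hr4 probe sets overlapped on that scale, with relative differences of 0.15 for 1641392_at (exact permutation p = 0.70) and 0.12 for 1632066_at (exact permutation p = 0.50). The mutants thus lay wholly above the controls in 2 of 9 X-linked members, beside 10.7% of all 2184 X-linked probe sets on the same scale, and the groups did not overlap in either direction in 17.3% of these. Relative differences of br ranged from -0.04 to 0.66, with exact permutation p between 0.20 and 0.90.

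Other genes of the pathway were read from 5 lists, each gene by its brightest probe set. Of 9 measured cofactors of the receptor and its uptake transporter, 0 passed the test, 8 were above 0 and the median difference was 0.29. The chromatin remodeller Mi-2 had 9.58, 9.21 and 8.98 in the mutants and 9.04, 8.68 and 8.55 in the controls, a difference of 0.50 (SE 0.20, limma adjusted p = 0.655), and the cofactor bon had a difference of 0.51 (SE 0.25). Of 13 other nuclear receptors, 0 passed and 7 were above 0, with a median of 0.05. The smallest p was that of kni, a gap gene with a receptor-like DNA-binding domain, which had 5.48, 5.43 and 5.42 in the mutants and 5.02, 5.01 and 4.92 in the controls. The kni difference was 0.46 (SE 0.11, limma adjusted p = 0.376), without overlap between the groups, and svp had 0.48 (SE 0.21).

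Of 12 other genes of the ecdysone and juvenile hormone responses (mostly transcription regulators, with a kinase gene, a transporter gene and a hormone turnover gene among those listed), 0 passed and 9 were above 0, with a median of 0.23. Kr-h1, which mediates juvenile hormone signals, had a difference of 0.27 (SE 0.18) and the cyclin-dependent kinase gene Eip63E one of 0.44 (SE 0.32), with mutant replicate 2 highest in both. Leaving out mutant replicate 2 gave 0.17 for Kr-h1 and 0.068 for Eip63E. Kr-h1 stood at 0.16 once control replicate 3 was left out. Of 12 genes of ecdysone synthesis and its control, 0 passed and 9 were above 0, with a median of 0.07. shd, the enzyme that makes the active hormone from ecdysone in peripheral tissues, had 8.04, 8.88 and 7.96 in the mutants and 7.63, 7.79 and 7.88 in the controls, without overlap, and a difference of 0.53 (SE 0.26, limma adjusted p = 0.714), which was 0.23 without mutant replicate 2. Ptth, the brain hormone that drives ecdysone synthesis, had 6.64, 5.88 and 6.46 in the mutants and 5.93, 6.03 and 5.84 in the controls. The Ptth difference was 0.39 (SE 0.21), and it was 0.24 without mutant replicate 1 (limma adjusted p = 0.991). The fit without mutant replicate 2, which called 7.08% of all probe sets, gave 0.61 (limma adjusted p = 0.0408).

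Of 10 ecdysone-inducible effector genes measured, 0 passed and 7 were above 0, with a median of 0.24. In 3 of the 10 (ImpE1, MsrA and Cth) all mutant arrays lay above all control arrays, and in 0 all lay below. Over all probe sets these shares were 6.07% and 5.79%. ImpE1, ecdysone-inducible in imaginal discs, had 7.66, 7.26 and 7.33 in the mutants and 6.14, 5.32 and 5.40 in the controls. The ImpE1 difference was 1.80 (SE 0.25, limma adjusted p = 0.116). MsrA, a methionine sulphoxide reductase, had a difference of 0.87 (SE 0.21, limma adjusted p = 0.361). In the fit without mutant replicate 2, ImpE1 and MsrA had limma adjusted p-values of 0.0204 and 0.0366. For ImpE1, MsrA and the brighter ftz-f1 probe set mutant replicate 1 was the highest array, whereas for EcR, br and Eip78C it was mutant replicate 2. Mutant replicate 1 was also highest for kni, but the 3 mutant pools were nearly level there (5.48, 5.43 and 5.42). ImpE1 and MsrA did not stand for the effectors as a whole. Of the 10 effector genes, mutant replicate 2 was highest in 7, and mutant replicate 1 was highest in 3 and lowest in 6. Mutant replicate 2 was also highest in 4 of 9 cofactors and 4 of 13 other receptors. Among the other response genes and the synthesis genes it was highest in 6 of 12 each. Over all probe sets it was highest in 23.8%, and mutant replicate 1 was highest in 24.2% and lowest in 18.8%.

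The genes most like br, Eip78C and EcR, the members with the largest range over the 6 arrays, were sought among 8039 other genes in the brighter 50%. Likeness was the mean absolute difference between profiles centred on their own means over the 6 arrays, in log2 units. Closest to br were Hsp27 (0.18), a small heat shock gene, Pu (0.22), the GTP cyclohydrolase gene, and CG9021 (0.25). Hsp27 had 8.90, 12.17 and 10.98 in mutant replicates 1 to 3 and 10.96, 10.76 and 11.05 in control replicates 1 to 3, with the lowest and highest arrays as in br. Closest to Eip78C were NLaz (0.31), Ugt301D1 (0.36) and CG34296 (0.36). Closest to EcR were heph (0.05), E23 (0.09) and Atg18b (0.10). The measure is not scaled to a gene's range over the arrays, which was 1.78 for EcR, 3.37 for br and 3.12 for Eip78C, so its values do not compare between members. E23, an ABC transporter gene that is itself ecdysone-inducible, had 6.55, 7.82 and 6.39 in the mutants and 6.75, 6.10 and 6.64 in the controls.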

How the data were processed

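Whole-larva RNA of 3 msl2 mutant and 3 heterozygous control pools was measured on 1 Affymetrix Drosophila Genome 2.0 array each. The authors deposited log2 expression values per probe set, made with RMA per the labels, and GCOS 1.4 is named in the submitters' processing notes. No source used here names the program that ran RMA or a genome build, so no coordinates are printed. RMA is meant to make the arrays' distributions alike, and it compresses differences between dim probe sets. The deposited arrays still differed somewhat. Their medians were 5.90, 6.08 and 5.93 in mutant replicates 1 to 3 and 6.02, 5.95 and 5.99 in control replicates 1 to 3. Of 18952 probe sets, 183 array controls were left out. Genes come from the platform annotation (13647 probe sets with 1 symbol, 402 with several, 4720 unnamed here), and chromosome arms from a RefSeq table of the assembly Release 6 plus ISO1 MT (13544 of the 13647 were found in it).

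Groups and replicate numbers follow the sample titles. Mutant minus control differences were tested with limma 3.58.1 in R 4.3.3 (lmFit and eBayes), two-sided, with Benjamini-Hochberg adjustment over all 18769 probe sets and a threshold of 0.05. Single values were compared by exact permutation over arrays. A gene's brightest probe set is the one whose mean across the 6 arrays is highest. Of the members, 6 of 18 probe sets lay in the brighter 50% and 4 in the dimmest 25%. From each pathway list the text names the 2 genes with the smallest p, and others to show a pattern, chosen after their values were seen. The members and lists were chosen with earlier results of these data known. Plots used Python 3.11.15 and matplotlib 3.10.9. The fit was tested on simulated data with 200 changed probe sets. It called 23 of 50 changes of 1 log2 unit and 42 of 50 changes of 2 units, with 7 false calls. The highest member difference was 0.90, so a count of 0 does not show that the members were unchanged. Precision is limited by the 3 arrays per group and by the spread between pools. The SE of the member differences ran from 0.14 (br 1626996_s_at) to 0.99 (br 1637312_a_at). The titles number the replicates and state no pairing, so the main fit left the arrays unpaired. Deviations from the group mean of same-numbered arrays correlated at 0.17, -0.33 and 0.06. Those of differently numbered arrays correlated between -0.35 and 0.29. With 3 arrays per group, these values cannot show whether same-numbered arrays shared a batch.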

Additional observations from a re-analysis of the deposited data

How the results depend on the processing

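The count of 0 members past the threshold was also 0 with a filter on dim probe sets, 1 probe set per gene, median centring, quantile normalization, trended and robust variances, array weights and the replicate block, and without any 1 array other than mutant replicate 2. It was 1, ftz-f1 (difference 0.99), with the 3' minus 5' signal of each array as a covariate, a setting added once the data had been seen, and between 0 and 1 with each array left out. Among all probe sets 6 passed, and the count was 2 with 1 probe set per gene, 10 with median centring, 12 with trended variances, 61 with array weights, 309 with that covariate, 0 with the replicate block (limma; 1229 at an unadjusted p under 0.05) and between 0 and 1329 with each array left out. The replicate block changed no call of a member. Of the listed pathway genes 0 passed, 1 with array weights and with the covariate (ImpE1 in both), and between 0 and 3 with each array left out. Members whose groups did not overlap numbered 3 (11.9% of all probe sets). They were 0 of 6 in the brighter 50% (16.4%), 2 of 8 with 1 probe set per gene (13.9%), 2 with median centring (11.9%) and 5 after quantile normalization (14.9%). With each array left out they were between 3 and 7 of 18: 7 without mutant replicate 1 (19.1%), 4 without mutant replicate 2 (36.5%), 4 without control replicate 1 (19.9%) and 3 without each of the others (16.5% to 23.9%). Some signs turned. Hr39 1632845_at, at -0.00095 with all arrays, was 0.018 with median centring and 0.0059 after quantile normalization, and Hr4 1641392_at was 0.10 with array weights. Relative to the X-linked median, Hr4 1641392_at was 0.15, Hr4 1632066_at 0.12 and br 1635691_at 0.13. With each array left out in turn, differences ran from -0.84 to 0.84 for br 1635691_at, -1.35 to 0.85 for br 1637312_a_at, -0.23 to 0.91 for br 1629683_at, -0.023 to 0.15 for br 1626996_s_at, -0.023 to 0.22 for usp, -0.31 to 1.17 for Eip78C, -0.017 to 0.52 for Hr39 1631402_s_at, -0.067 to 0.081 for Hr39 1632845_at, -0.26 to 0.14 for Hr4 1641392_at and -0.17 to 0.062 for Hr4 1632066_at. The cause of these changes was not tested. Dim signal limits at least the 4 of the 18 members that lie in the dimmest 25% of probe sets by mean. It also bears on the other Hr4 probe sets and on the control mean of ftz-f1 1624520_a_at. The value of br 1637312_a_at in mutant replicate 1 is limited in the same way.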
